A study of Mus musculus with 8 samples.

Results

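Alveolar type 1 (AT1) genes were followed in bulk RNA from 8 mouse lung tumors. The 10 genes, Ager, Pdpn, Hopx, Aqp5, Cav1, Rtkn2, Clic5, Akap5, Emp2 and Sec14l3, were found by gene symbol among the 48709 genes of the count table. Each matched a single row, and each passed the filter on low counts. Gene identifiers are those of the table, and gene positions are those of GENCODE M21 on GRCm38. The tumors formed 2 groups of 4, K-Ctrl and K-Setd2KO. Both arose in mixed B6J/129S4vJae mice carrying a Cre-activated oncogene allele, after the lentivirus LentiCRISPRv2Cre was delivered to the lung by intubation. This virus gives Cre, Cas9 and an sgRNA, which was directed at GFP in K-Ctrl tumors and at Setd2, the gene of the H3K36me3 methyltransferase, in K-Setd2KO tumors. According to the study the specimens were matched for stage by histology and the K-Setd2KO tumors were low grade adenomas. The study gives an upper limit for the age at tumor initiation. The exact ages, the time from infection to harvest and the number of mice per group are not given in the sources used here, so p-values measure the spread between these tumors. The series design describes frozen tumors, while its extraction text speaks of cell lines.

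Alveolar type 1 cells are the broad, thin cells that cover most of the gas-exchange surface of the alveolus and lie against the capillary endothelium. They arise from alveolar type 2 (AT2) cells, the surfactant-making cells, after injury. Their best known genes encode membrane receptors, channels, caveola proteins and membrane-to-cytoskeleton linkers. Several of these genes are also used by other lung cells, and Cav1 in particular is strongly expressed by endothelium. In bulk tumor RNA, fewer cells of a type and less RNA per cell cannot be told apart.

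The library totals ran from 5806599 to 21290402 counts, and the lowest count of any of the 10 genes in any tumor was 102, for Rtkn2. The Setd2 transcript itself stood at 140 ± 8.81 CPM (read counts scaled to a common library size with TMM factors, SD, n = 4) in K-Ctrl tumors and 136 ± 15.5 CPM in K-Setd2KO tumors. Cas9 cuts need not lower a transcript, so this value does not check the labels. By expression of Xist and Y-linked genes, 3 K-Ctrl tumors and 1 K-Setd2KO tumor came from males and the rest from females. AT2 genes, the most abundant lung lineage genes here, summed to between 53920 and 78990.5 CPM in K-Ctrl tumors and between 63549 and 90426 CPM in K-Setd2KO tumors.

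The promoters of 4 of the genes are shown for comparison, 2 of genes that were called lower in K-Setd2KO tumors (Sec14l3 and Cav1) and 2 that were not (Ager and Pdpn). The sequences are the bases upstream of the RefSeq start on GRCm38.p6, written 5′ to 3′ on the gene's strand, with CpG dinucleotides in capitals. They lie at chr11:4064603-4064840 (plus strand) for Sec14l3, chr6:17306085-17306334 (plus) for Cav1, chr17:34597600-34597849 (plus) for Ager and chr4:143299565-143299814 (minus) for Pdpn. The last 12 bases before the Sec14l3 start were left out because they lie inside the annotated gene.

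Sec14l3: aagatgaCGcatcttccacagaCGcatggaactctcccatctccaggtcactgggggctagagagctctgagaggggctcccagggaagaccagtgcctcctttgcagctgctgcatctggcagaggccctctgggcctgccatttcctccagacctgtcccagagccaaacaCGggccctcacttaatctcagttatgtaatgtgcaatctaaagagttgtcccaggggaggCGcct
Cav1: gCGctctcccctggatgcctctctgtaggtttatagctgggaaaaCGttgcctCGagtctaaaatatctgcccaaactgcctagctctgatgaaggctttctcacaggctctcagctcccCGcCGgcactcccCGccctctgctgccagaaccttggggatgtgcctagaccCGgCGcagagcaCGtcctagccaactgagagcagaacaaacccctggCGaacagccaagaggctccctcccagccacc
Ager: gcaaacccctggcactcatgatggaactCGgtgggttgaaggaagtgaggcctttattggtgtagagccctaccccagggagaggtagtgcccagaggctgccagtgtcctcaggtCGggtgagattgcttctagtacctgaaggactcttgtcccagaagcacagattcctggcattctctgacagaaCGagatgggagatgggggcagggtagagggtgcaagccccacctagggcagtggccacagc
Pdpn: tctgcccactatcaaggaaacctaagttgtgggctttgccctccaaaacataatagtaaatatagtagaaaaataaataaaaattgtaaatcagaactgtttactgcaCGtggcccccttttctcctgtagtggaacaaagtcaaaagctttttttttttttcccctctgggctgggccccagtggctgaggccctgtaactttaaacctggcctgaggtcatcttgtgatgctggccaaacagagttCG

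Sec14l3 has 4 CpG in these windows, Cav1 10, Ager 3 and Pdpn 2, against a median of 6 over the 32851 RefSeq promoters of 250 bases. Genes with few CpG thus stood on both sides of the comparison. The highest CpG count among the 11 listed starts of 9 genes was 38, for Aqp5, whose RNA did not pass the test either. Rtkn2 has no entry in the promoter table. None of the 11 windows holds GGAATG, the core of the site bound by TEAD factors, or CAAGTG, a site of NKX2 factors, on either strand. These letters occur in 12.6% and 11.6% of all promoters of that length.

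Of the 10 genes, 3 passed the test as lower in K-Setd2KO tumors (edgeR quasi-likelihood test, adjusted p under 0.05 over 14929 genes) and 0 as higher. Over all genes tested, 7.74% were called lower and 4.97% higher. Rtkn2, Sec14l3 and Cav1 were each more than 5-fold lower in K-Setd2KO tumors, whereas the log2 fold changes of Ager, Pdpn and Aqp5 lay between -0.23 and 0.11. Hopx, Akap5, Clic5 and Emp2 lay in between, from -1.59 to -0.73, and did not pass. The median log2 fold change of the 10 genes was -1.32, beside 0.03 over all genes tested, and 9 of the 10 values were below 0. With Cav1 set apart, 2 of the remaining 9 passed as lower, and their median was -1.10. The AT1 genes together took 0.342 to 0.68% of all counts in K-Ctrl tumors and 0.181 to 0.316% in K-Setd2KO tumors.

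**Figure D1:**
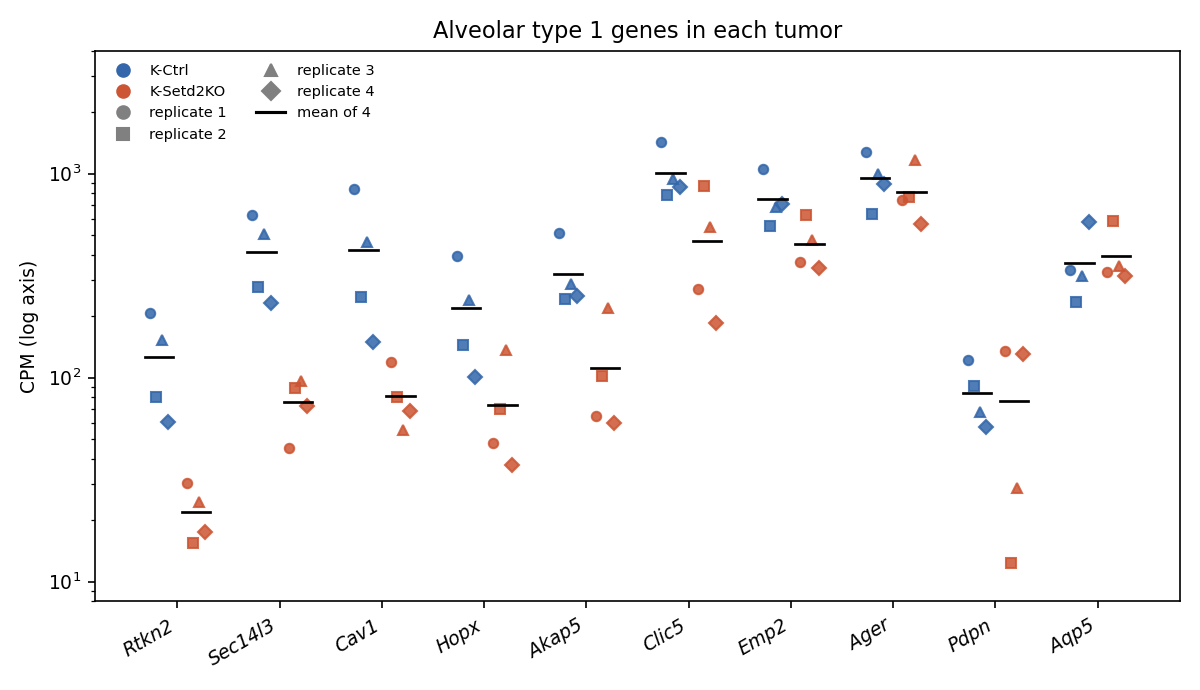
CPM of each gene (log axis) in the 4 K-Ctrl tumors (blue) and the 4 K-Setd2KO tumors (orange), with the replicate number as the marker shape and the group mean as a bar; genes are ordered by log2 fold change. Rtkn2, Sec14l3, Cav1 and Akap5 have no K-Setd2KO tumor within the K-Ctrl range, while the groups overlap for the other 6 genes.

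Rtkn2 (ENSMUSG00000037846.18, chr10:67979570-68059740) encodes rhotekin 2, a protein related to rhotekin. It stood at 208, 80.8, 153 and 61.0 CPM in K-Ctrl tumors 1 to 4 and at 30.6, 15.5, 24.5 and 17.5 CPM in K-Setd2KO tumors 1 to 4. Every K-Setd2KO tumor lay below every K-Ctrl tumor, and K-Ctrl 1 was the highest. The group means were 126 ± 67.8 and 22.004 ± 6.91 CPM (SD, n = 4), a 5.69-fold lower level. The log2 fold change was -2.51 (SE 0.41) with an edgeR adjusted p of 0.00929. Within males the difference of mean log2 CPM was -2.34 and within females -1.99, each of which leaves 1 tumor in a group and so has no test.

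Sec14l3 (ENSMUSG00000054986.13, chr11:4064841-4077736) encodes a SEC14-like lipid-binding protein and is also expressed by ciliated airway cells. In K-Ctrl tumors its level was 627, 279, 506 and 232 CPM, against 45.1, 89.1, 96.8 and 72.7 CPM in the K-Setd2KO tumors. The groups were separated by a wide gap, since the highest K-Setd2KO value was well under the lowest K-Ctrl value. The means were 411 ± 187 and 75.9 ± 22.9 CPM, 5.41-fold apart. The fitted log2 fold change was -2.44 (SE 0.367) and its edgeR adjusted p was 0.00799. Within males and within females the differences of mean log2 CPM were -2.11 and -2.07. The ciliated list moved the same way, with 2 of 10 tested genes lower (Dnah9, an axonemal dynein, at -3.96 and Tppp3 at -2.31). Foxj1, the master regulator of cilia, was at 3.20 against 1.49 CPM without a call. The summed level was 51.1 to 156 CPM in the K-Ctrl group, beside 17.7 to 40.9 CPM after Setd2 targeting. Of the mean sums of 99.3 and 27.6 CPM, Tppp3 alone held 62.6 and 12.7 CPM. The mean log2 level of the list, relative to all 8 tumors, overlapped, with K-Ctrl 4 at -0.23 and K-Setd2KO 4 at 0.26. Across the 8 tumors Sec14l3 had the highest r with the mean of the ciliated list of the 10 genes (0.87, and 0.64 when each group was centred). Its part in the Sec14l3 difference was not tested.

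Cav1 (ENSMUSG00000007655.16, chr6:17306335-17341452) encodes caveolin 1, the coat protein of caveolae in AT1 and endothelial cells. The K-Ctrl tumors had 836, 250, 463 and 149 CPM and the K-Setd2KO tumors 120, 80.8, 55.1 and 68.5 CPM. The groups did not overlap, but the K-Ctrl values spanned 5.61-fold, the widest span of the 10 genes in that group. The means were 424 ± 304 and 81.0 ± 27.9 CPM, 5.23-fold apart. This gave a log2 fold change of -2.39 (SE 0.511) at an edgeR adjusted p of 0.0207. This call was lost without K-Ctrl 3 (edgeR adjusted p = 0.0534), without K-Setd2KO 3 (0.0601) and without K-Setd2KO 4 (0.0532), and with sex as a term in the model (0.0791). The log2 fold changes of these 4 fits were -2.35, -2.24, -2.32 and -2.30. Cav1 lies on chromosome 6, whose median gene stood 0.33, -0.03, 0.33 and 0.38 above the K-Ctrl mean (log2) in K-Setd2KO tumors 1 to 4, that is, in the direction opposite to Cav1 in 3 of them.

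Akap5 (ENSMUSG00000021057.15, chr12:76324891-76334153) encodes an A-kinase anchoring protein that holds protein kinase A and other enzymes near the membrane. The K-Ctrl tumors held 511, 243, 288 and 251 CPM of it, and the K-Setd2KO tumors 65.1, 102, 219 and 59.9 CPM. Here too the groups did not overlap, although K-Setd2KO 3 came close to the lowest K-Ctrl tumor. The log2 fold change was -1.53 (SE 0.441) and the edgeR adjusted p was 0.0523, just outside the threshold. In all, 4 of the 10 genes were lower without overlap, beside 11.2% of all genes tested. For each of them the exact two-sided permutation test of mean log2 CPM gave p = 0.0286, the smallest that 70 assignments of 4 against 4 can give.

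Hopx (ENSMUSG00000059325.14, chr5:77086988-77115121) encodes an atypical homeodomain protein that acts with other factors in the nucleus. Its values were 395, 145, 241 and 100 CPM in the K-Ctrl group, beside 47.6, 69.99, 137 and 37.3 CPM after Setd2 targeting. K-Setd2KO 3 exceeded K-Ctrl 4, so the groups overlapped. The log2 fold change was -1.59 (SE 0.51, edgeR adjusted p = 0.0726). The Hopxos RNA, which overlaps Hopx on the other strand over 27.2% of its exon bases, had between 0 and 26 counts per tumor, against 218 or more for Hopx.

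Clic5 (ENSMUSG00000023959.8, chr17:44188572-44280168), a chloride intracellular channel family protein tied to the actin cortex, had 1429.8, 789, 944 and 858 CPM in K-Ctrl tumors and 273, 868, 550 and 186 CPM in K-Setd2KO tumors. K-Setd2KO 2 stood within the K-Ctrl range and the other 3 below it. Emp2 (ENSMUSG00000022505.8, chr16:10281749-10313968), a tetraspan membrane protein, had 1049, 553, 683 and 712 CPM in K-Ctrl tumors and 367, 627, 471 and 346 CPM in K-Setd2KO tumors. The same tumor, K-Setd2KO 2, was the single one to overlap with K-Ctrl. The log2 fold changes were -1.10 for Clic5 (95% interval -2.11 to -0.09, edgeR adjusted p = 0.139) and -0.73 for Emp2 (-1.29 to -0.17, edgeR adjusted p = 0.0853). Without K-Setd2KO 2 both genes passed the test, and each passed in only this 1 of the 8 fits that left out a tumor. That fit also called the most genes of the 8, at 2058.

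Ager (ENSMUSG00000015452.14, chr17:34597862-34600936) encodes the receptor for advanced glycation end products, which is far more abundant in AT1 cells than elsewhere in the body. It was at 1279, 633, 994 and 885 CPM in K-Ctrl tumors and at 743, 765, 1170.2 and 566 CPM in K-Setd2KO tumors. The ranges overlapped almost entirely, and the lowest value of either group was similar. The log2 fold change was -0.23 with a 95% interval from -0.82 to 0.37 (edgeR adjusted p = 0.611), so a decrease of the size fitted for Rtkn2, Sec14l3 or Cav1 lay outside the interval. With sex in the model the Ager value was 0.14, and the within-sex differences were 0.17 in males and 0.11 in females, so its sign was not stable.

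Aqp5 (ENSMUSG00000044217.16, chr15:99590849-99594829) encodes the water channel aquaporin 5 of the apical membrane. Its levels were 336, 234, 314 and 581 CPM in the K-Ctrl group, beside 331, 585, 351 and 315 CPM after Setd2 targeting. A single tumor of each group, K-Ctrl 4 and K-Setd2KO 2, stood well above the other 3. The log2 fold change of 0.11 had an interval from -0.57 to 0.79 (edgeR adjusted p = 0.839).

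Pdpn (ENSMUSG00000028583.14, chr4:143267431-143299564) encodes podoplanin, a mucin-type membrane glycoprotein that lymphatic endothelium, mesothelium and some fibroblasts also carry. The K-Ctrl tumors held 121, 91.1, 68.0 and 57.6 CPM and the K-Setd2KO tumors 135, 12.4, 28.7 and 131 CPM. The K-Setd2KO tumors thus fell into a high pair and a low pair, with a 10.9-fold range, against 2.11-fold in K-Ctrl tumors. Its fold change was the least certain of the 10, with a log2 value of -0.14 and an interval from -1.64 to 1.36 (edgeR adjusted p = 0.909). Other models gave lower values that did not pass either, at -0.77 with limma voom, -0.74 with sex in the model, -0.65 with a replicate block and -0.80 under a scaling to epithelial genes, which moved the median of all genes by -0.60, while the values without 1 tumor ran from -0.57 to 0.21. The lymphatic endothelial list had 4 of 6 genes lower (median -1.51) and the mesothelial list 4 of 5 (median -2.19), and with sex in the model 1 gene of each list was lower, at medians of -1.52 and -2.60, where 784 of all 14929 genes were lower and 453 higher. Their summed levels were 102 to 453 CPM and 22.8 to 103 CPM in K-Ctrl tumors. In K-Setd2KO tumors 1 to 4 the lymphatic sums were 57.1, 49.1, 39.6 and 39.4 CPM and the mesothelial sums 20.3, 5.12, 6.46 and 13.7 CPM. The tumors with high Pdpn, K-Setd2KO 1 and 4, had the higher mesothelial sums of that group. The fibroblast mean also varied with Pdpn over the 8 tumors (r = 0.62, and 0.66 when each group was centred). Their part in the Pdpn values was not tested.

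**Figure D2:**
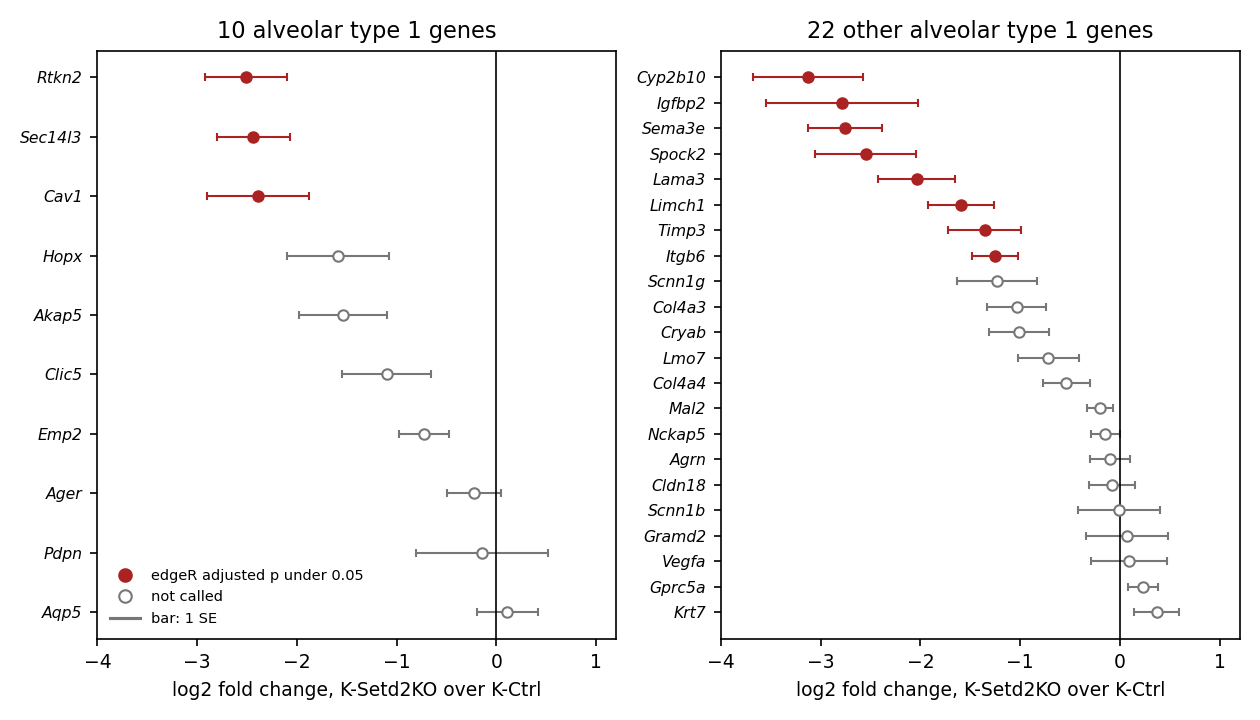
Log2 fold change of K-Setd2KO over K-Ctrl tumors (x axis) for the 10 genes (left) and 22 other AT1 genes (right); bars are 1 SE and filled red points passed the edgeR test at an adjusted p under 0.05. The 3 filled points on the left lie between -2.51 and -2.39, and the 8 on the right between -3.13 and -1.25, with no gene filled above 0.

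A further 22 genes linked to AT1 cells gave the same kind of split. Of these 8 were lower, 0 were higher and 14 were not called, with a median of -0.87 and a range from -3.13 to 0.37. Sema3e, a secreted class 3 semaphorin, had a log2 fold change of -2.76 (SE 0.37, edgeR adjusted p = 0.00643). Cyp2b10, a cytochrome P450, was at -3.13 (SE 0.551), from 48.9 to 5.605 CPM. Itgb6, the integrin beta 6 chain, and Lama3, a laminin chain of the basement membrane, were lower too, at -1.25 (SE 0.231) and -2.04 (SE 0.387). With sex in the model 4 of the 22 were lower (median -0.54). As with Ager and Aqp5, part of this list stood near 0. Without overlap between the groups, 8 of the 22 genes were lower, beside 11.2% of all genes tested. They are not all the same genes as the 8 that were called.

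Among 7 genes that act upstream of AT1 identity, 5 log2 fold changes were above 0 and 2 below. Tead1, a partner of the Hippo effectors YAP and TAZ, was lower at -0.87 (SE 0.201, edgeR adjusted p = 0.0252), and Klf5, a zinc-finger factor of the alveolar epithelium, was higher at 0.65 (SE 0.179, edgeR adjusted p = 0.0442). Gata6 stood at 0.39 and Wwtr1, which encodes TAZ, at -0.53, and neither passed. Of the 7 regulators, 1 was lower and 1 higher, with a median of 0.19. Over all genes tested 7.74% were lower and 4.97% higher, so calls this few were not read as a trait of the list. With sex in the model 0 of the 7 were called, and the median was 0.32. Of 8 genes that mark the transitional state between AT2 and AT1 cells, 1 was higher (Areg, an EGF family ligand, at 1.73) and 0 were lower. These counts stand beside the same shares over all genes. With sex in the model 0 were called.

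Caveola genes other than Cav1 differed among themselves. Cavin2, a caveola coat adaptor that is abundant in endothelium, was lower at -2.58 (SE 0.517, edgeR adjusted p = 0.0166). Cav2, which assembles with caveolin 1, was at 224 and 123 CPM, a log2 fold change of -0.87 (SE 0.315, edgeR adjusted p = 0.101), and Cavin1 at 314 and 219 CPM without a call. Of the 7 caveola genes, Cav1 included, 2 were lower and 0 higher. With sex in the model 0 of them were called.

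The endothelial list, which does not hold Cav1, had 7 of 19 genes lower and 0 higher, with a median of -1.45. With sex in the model 2 of the 19 were lower, at a median of -1.40. Its summed level ran from 1483 to 5142 CPM in K-Ctrl tumors and from 682 to 1233 CPM in K-Setd2KO tumors, without overlap. Car4, a carbonic anhydrase of lung capillaries, was lower at -2.63, and Cdh5, the endothelial cadherin, at -1.93. Per 1000 CPM of the endothelial sum, Cav1 stood at 149 ± 34.01 CPM in the K-Ctrl group and at 85.9 ± 15.8 CPM after Setd2 targeting (difference of mean log2 ratio -0.78, exact permutation p = 0.0571). K-Ctrl 4, with the lowest Cav1, had 97.9 on this scale, within the K-Setd2KO range of 66.7 to 100. Rtkn2 and Sec14l3, which are not endothelial markers, were lower per endothelial sum, at -1.02 and -0.996 without overlap (each exact permutation p = 0.0286), while Ager was higher by 1.15 (exact permutation p = 0.0286). The other genes overlapped between the groups on this scale, with Hopx at -0.21, Akap5 at -0.29, Clic5 at 0.07, Emp2 at 0.65, Pdpn at 0.68 and Aqp5 at 1.52 (exact permutation p from 0.0571 to 0.914). In all 30 such ratios to list sums were computed, and these p-values are not adjusted over them. The part of the endothelial signal in the lower Cav1, or in any of the other genes, was not tested.

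The AT2 list was split, with 2 of 12 genes higher (Sftpb at 1.09 and Lpcat1 at 1.05), 2 lower (Napsa at -1.60 and Hc at -1.43) and a median of -0.00036. Over all genes tested 4.97% were higher and 7.74% lower. With sex in the model 2 of the 12 were higher and 1 lower, at a median of -0.09. Against the AT2 sum of the same tumor, Rtkn2, Sec14l3, Cav1, Clic5 and Emp2 were lower without overlap (-2.55, -2.53, -2.31, -1.46 and -0.88 log2, each exact permutation p = 0.0286), and Ager was at -0.38 with overlap (exact permutation p = 0.343). Akap5 and Hopx were at -1.82 and -1.73 with overlap (each exact permutation p = 0.0571), Pdpn at -0.85 (exact permutation p = 0.457) and Aqp5 at -0.0068 (exact permutation p = 0.971). Against the epithelial sum, Ager was at -0.68 (exact permutation p = 0.114), and Rtkn2, Sec14l3, Cav1, Akap5, Clic5 and Emp2 were lower without overlap, from -2.85 to -1.18 (each exact permutation p = 0.0286). Hopx at -2.04, Pdpn at -1.15 and Aqp5 at -0.31 overlapped (exact permutation p = 0.0571, 0.257 and 0.229). Of 18 epithelial genes 8 were called higher, 4 with sex in the model, and the summed levels overlapped, at 2464 to 3634 CPM and 3467 to 4170 CPM. Of 10 leukocyte genes 6 were lower, 8 with sex in the model, with summed levels of 603 to 1175.5 CPM and 208 to 291 CPM, and 3 of 9 fibroblast genes were lower (median -0.91), 1 with sex in the model (median -1.54), with summed levels of 1147 to 2198 CPM and 579 to 1115 CPM. The remaining lists also lay mostly below 0, with 5 of 6 club cell genes (median -1.70, 1 called, 0 with sex in the model), 5 of 5 erythroid genes (median -1.74, 0 called) and 7 of 7 smooth muscle and pericyte genes (median -1.02, 0 called). Scaling the libraries to the epithelial list moved the share of higher calls from 39.1% to 2.43%. Relative to the median of all genes under that scaling, Rtkn2 was at -2.60, Sec14l3 at -2.52, Cav1 at -2.51, Ager at -0.25 and Aqp5 at 0.14.

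**Figure D3:**
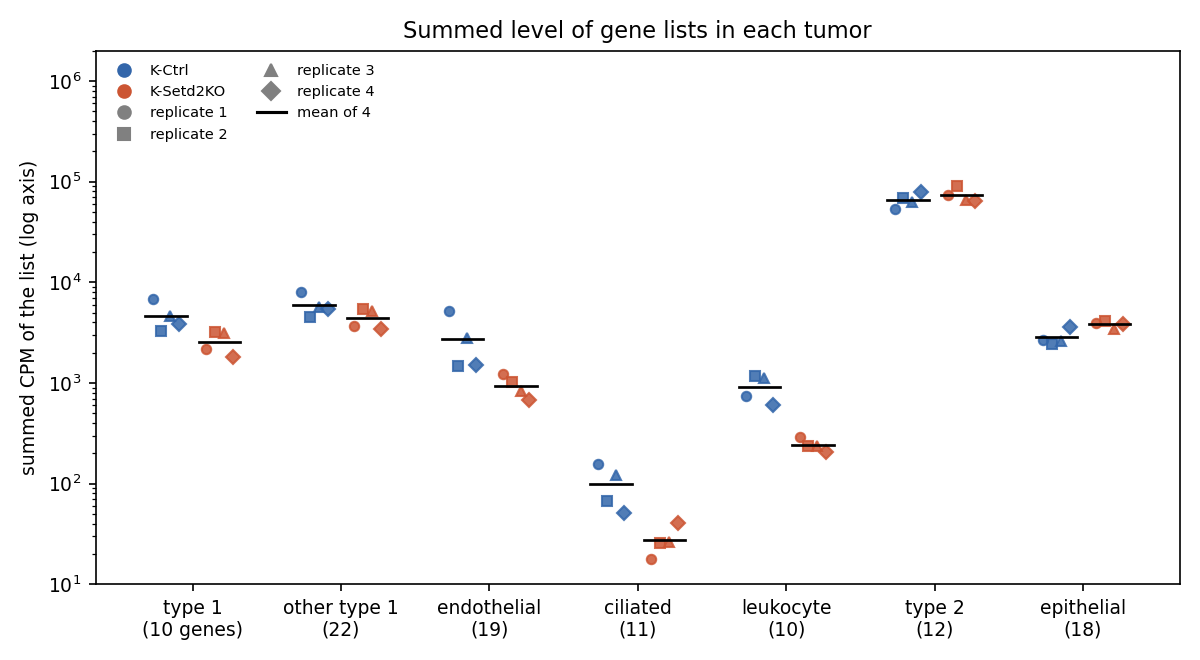
Summed CPM of gene lists (log axis) in each tumor, with K-Ctrl in blue, K-Setd2KO in orange, the replicate as marker shape and the group mean as a bar; the number of genes in each list stands under its name. The sum of the 10 AT1 genes lay between 3297 and 6793 CPM in K-Ctrl tumors and between 1799 and 3214 CPM in the K-Setd2KO group (without Cav1, K-Ctrl 2 at 3047 lay below K-Setd2KO 2 at 3133 and K-Setd2KO 3 at 3049.6), and the endothelial, ciliated and leukocyte sums were lower without overlap too, as were the fibroblast, caveola, lymphatic and mesothelial sums, which are not drawn. The other AT1, AT2 and epithelial sums overlapped.

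The other 9 genes were also set against Ager within each tumor. Ager was chosen as the reference after its values were seen, so these ratios restate the fold changes above as a description and carry no test. In K-Ctrl tumors Rtkn2 counts were 12.8 ± 4.24% of Ager counts (SD, n = 4) and in K-Setd2KO tumors 2.83 ± 0.983%. Sec14l3 went from 42.5 ± 11.3% to 9.71 ± 3.11%, Cav1 from 42.0 ± 20.04% to 10.9 ± 4.73% and Akap5 from 33.9 ± 6.12% to 12.9 ± 4.35%. These are the 4 genes whose CPM did not overlap between the groups, and their ratios did not overlap either. Hopx went from 22.3 ± 8.12% to 8.47 ± 2.51% and Clic5 from 107 ± 13.9% to 57.5 ± 37.8%. Aqp5 stood at 40.1 ± 17.6% and 51.7 ± 19.6%, and Pdpn at 9.31 ± 3.64% and 11.4 ± 10.97%, with overlap for both. On the log2 scale the mean difference of the Pdpn ratio was -0.46, opposite to that of its means.

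**Figure D4:**
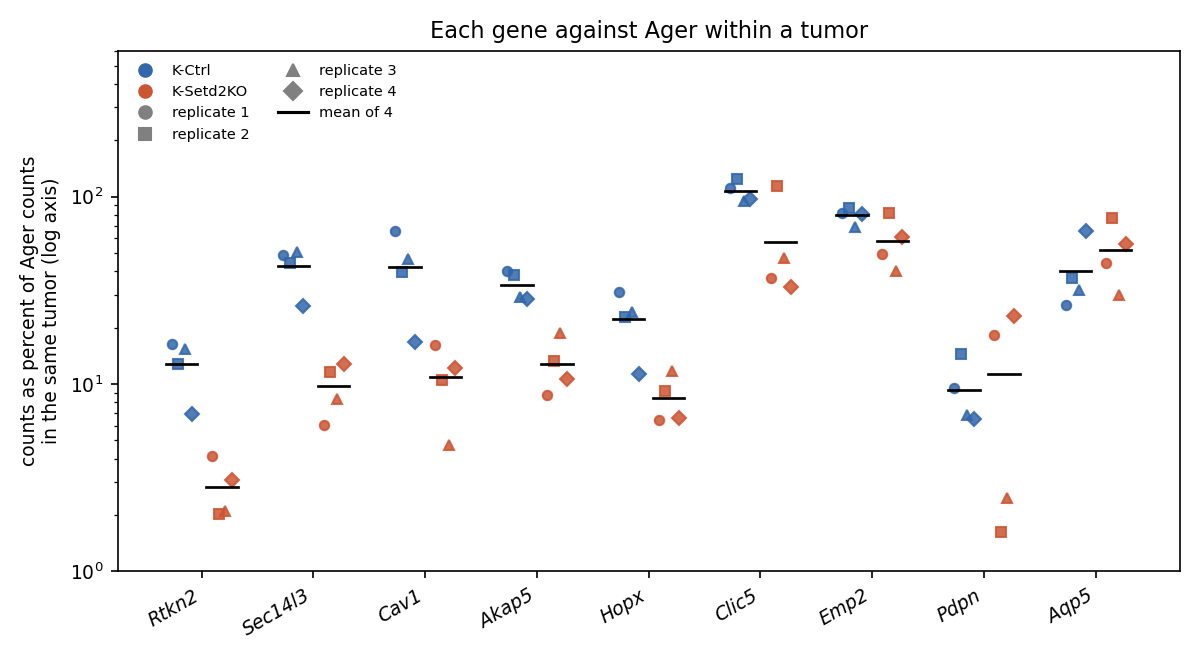
Counts of each gene as a percent of Ager counts in the same tumor (log axis), for K-Ctrl (blue) and K-Setd2KO tumors (orange), with the replicate as marker shape and the group mean as a bar. Rtkn2 sits between 6.88 and 16.3% in K-Ctrl and between 2.02 and 4.11% in K-Setd2KO tumors, while Aqp5 overlaps between groups.

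To compare the genes with each other, levels were taken per gene length as TPM. In K-Ctrl tumors Ager was the highest at 1265 ± 367 TPM, rank 53 among all genes, and Rtkn2 the lowest at 65.0 ± 35.6 TPM. Aqp5 (625 ± 246 TPM), Emp2 (623 ± 180), Clic5 (490 ± 146), Sec14l3 (423 ± 197), Hopx (417 ± 251) and Cav1 (354 ± 256) formed a middle range, followed by Akap5 (136 ± 54.5) and Pdpn (133 ± 45.9). Between neighbours in this order only Ager over Aqp5 and Pdpn over Rtkn2 differed by more than the SD of both. In K-Setd2KO tumors the means of Ager (1076 ± 377 TPM), Aqp5 (661 ± 156), Emp2 (368 ± 80.8) and Clic5 (220 ± 131) had the same order. Aqp5 was above Emp2 in 1 of 4 K-Ctrl tumors and in 4 of 4 K-Setd2KO tumors. Sec14l3 moved from rank 226 to rank 1892 among all genes, Cav1 from 292 to 2243 and Rtkn2 from 2245 to 8512. The gene lengths are the deposited ones, and those of Aqp5 (1667 bases), Clic5 (5870) and Emp2 (3440) are shorter than in GENCODE M21 (2599, 8782 and 8644), so a comparison of these 3 genes with the others depends on the gene models used.

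Across the 8 tumors most of the genes varied together. The 21 pairs among Hopx, Cav1, Rtkn2, Clic5, Akap5, Emp2 and Sec14l3 had Pearson r of log2 CPM between 0.66 and 0.96 (median 0.85). With each genotype centred on its own mean the range was 0.13 to 0.91 (median 0.65). Hopx and Akap5 (0.96, and 0.91 when centred), Cav1 and Rtkn2 (0.96 and 0.87) and Clic5 and Emp2 (0.95 and 0.89) were the closest. Ager varied with Hopx and Akap5 (0.77 and 0.74) although its mean differed little between groups. Aqp5 and Pdpn had lower values, with medians of -0.18 and -0.0024 over their 9 pairs and -0.64 between them. The split was not sharp, since Ager had r of 0.43 with Cav1, as Pdpn did, and Aqp5 with Emp2 reached 0.57 when centred, above Rtkn2 with Clic5 (0.13) and Cav1 with Akap5 (0.17). All points share libraries and normalization, 8 tumors are few, and the grouping was read from the values, so these r values are a description.

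**Figure D5:**
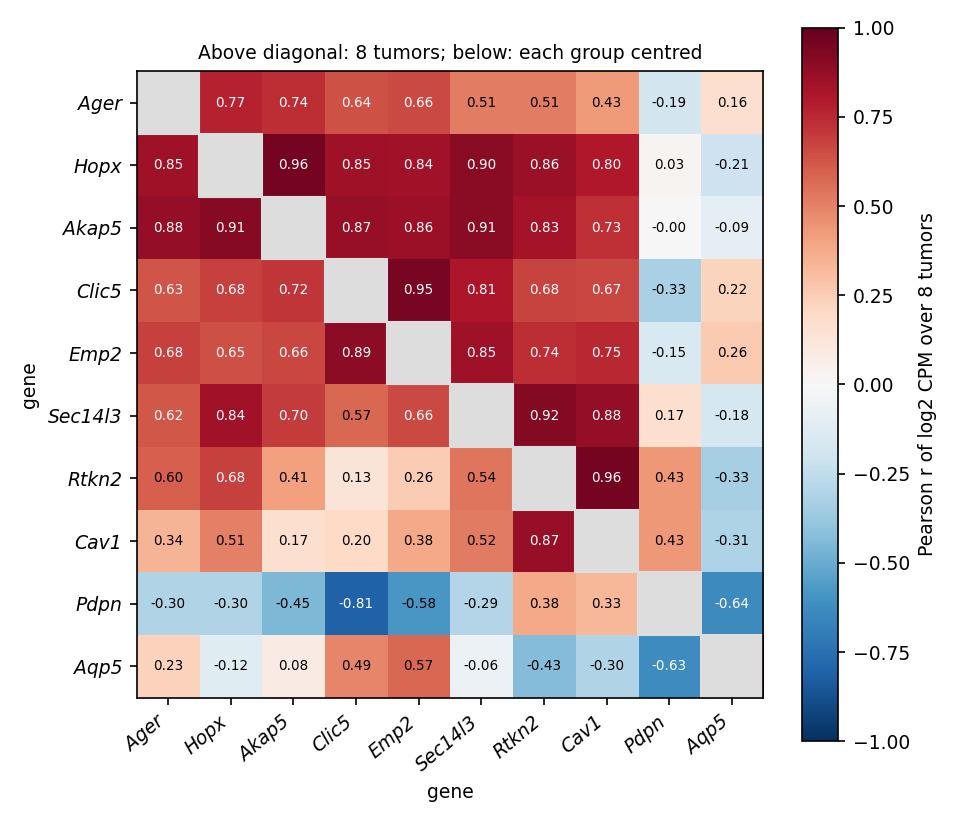
Pearson r of log2 CPM between each pair of the 10 genes over 8 tumors, above the diagonal as measured and below it after each group was centred on its own mean; red is positive and blue negative. Hopx and Akap5 reach 0.96 above and 0.91 below the diagonal, and the Aqp5 and Pdpn rows are near 0 or negative with most genes.

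The mean of the endothelial list varied most closely with Cav1 (r = 0.95 over 8 tumors, 0.88 when centred) and Rtkn2 (0.92 and 0.80), and least with Aqp5 (-0.07 and 0.09) and Pdpn (0.21 and -0.03). The mean of the other AT1 genes varied with Sec14l3 (0.95 and 0.82), Rtkn2 (0.95 and 0.78) and Hopx (0.92 and 0.84). Cav1 was like both lists, at 0.94 with the other AT1 genes (0.79 when centred). The mean of the epithelial list varied the opposite way to Rtkn2 (-0.93 and -0.69), Sec14l3 (-0.92 and -0.61), Cav1 (-0.89 and -0.62) and Hopx (-0.86 and -0.66). Only Aqp5 had a positive r with it (0.52 and 0.76). Genes with a pattern very like Ager over the 8 tumors included Fgfbp1 (r = 0.97), Atp2c1 (0.95), Ikbip (0.95), Tmem144, Dnmt3b, Platr21 and Haus4. They were chosen for their likeness to Ager, so that none of the 7 was called follows from the choice, and 5 of them had means of under 10 CPM in both groups.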

How the data were processed

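Bulk RNA of 4 K-Ctrl and 4 K-Setd2KO lung tumors was sequenced from TruSeq Stranded mRNA libraries. The deposited table holds raw counts per gene made by the authors, with STAR 2.5.2b, featureCounts 1.5.0-p1 and GRCm38.p4 named in the submitters' processing notes. The annotation release and strand setting are not given in the sources used here. Gene IDs were matched to GENCODE M21 (99.26%).

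Groups came from the sample labels. Genes passing filterByExpr were fitted with edgeR 4.0.16 (TMM, robust quasi-likelihood, R 4.3.3) on genotype alone, with Benjamini-Hochberg adjustment over all 14929 genes. CPM used TMM-scaled library sizes and TPM the deposited lengths. Correlations used log2 CPM with a prior count of 2. Exact permutation tests were two-sided. Alternatives were DESeq2 1.42.0, limma 3.58.1 voom, other scalings and filters, a replicate block, a sex term and leaving out each tumor. Scripts were tested on simulated data. From each other list at most the 4 genes with the smallest p were named, and genes among the 8 most like Ager, of which 1 is not reported here. Foxj1 was added after its values were seen. The 10 genes and all lists were chosen with earlier results of these data known, so no list count is independent support. No 2 tumors of a group agreed within sampling noise (lowest chi-square per degree of freedom 30.5).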

Additional observations from a re-analysis of the deposited data

Results flagged for a closer look

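Aqp5 in K-Setd2KO 2 stood at 585 CPM, far above the nearest tumor of its group at 351 CPM. Akap5 in K-Ctrl 1 stood at 511 CPM, with the nearest K-Ctrl tumor at 288 CPM. In both cases the gap to the nearest tumor took more of the group's range than Dixon's 95% limit for 4 values allows. With 20 sets of 4 values examined (10 genes in 2 groups), chance marks about 1 in 20.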

How the results depend on the processing

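Over 17 alternatives Rtkn2 and Sec14l3 passed the test as lower in each (log2 fold change -3.17 to -2.16 and -3.09 to -2.12) and Cav1 in 12, with adjusted p up to 0.081 without the low-count filter. Akap5 passed in 6, Hopx in 4, Emp2 in 3, Clic5 in 2, and Ager, Pdpn and Aqp5 in 0. Scaling to the epithelial list called 5513 genes, 5379 of them lower, and 7 of the 10 AT1 genes lower, DESeq2 3211 genes and 6 of the 10, and the sex term 1237 genes. Leaving out 1 tumor gave 763 (K-Ctrl 3) to 2058 genes (K-Setd2KO 2) and 2 to 5 AT1 genes, 5 without K-Setd2KO 2. The gene count also fell by over 1.5 times without K-Ctrl 1 (938), K-Ctrl 2 (1126) or K-Setd2KO 3 (1011). The sign changed for Aqp5 under epithelial scaling (-0.43, but 0.14 relative to the median of all genes), for Ager with the sex term (0.14) and on leaving out 1 tumor for Pdpn (-0.57 to 0.21) and Aqp5 (-0.15 to 0.43). Causes of these changes were not tested.

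The replicate block gave 1341 genes and 3 AT1 genes, those called without it. Same-numbered tumors deviated together with r of -0.07, -0.03, 0.19 and -0.02. The labels do not say whether the numbers pair the tumors, and these values cannot decide it. With 4 tumors a group and 1 library each, the exact test cannot go below 0.0286.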
